A study of Mus musculus with 5 samples.

Results

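Transcripts of 34 genes of cholesterol, oxysterol and fatty acid synthesis were compared between group 3 innate lymphoid cells (ILC3) and CD4 T cells of the mouse. The genes were taken by symbol, and all 34 were found among the 27179 gene identifiers of the count table. By role they fall into mevalonate enzymes, enzymes of squalene and sterol synthesis, the SREBP factors with their regulators, sterol transport and storage, oxysterol enzymes, and fatty acid synthesis. The ILC3 group held 3 libraries of CD45+, CD3- and CD127+ cells sorted for a GFP reporter, and the CD4 T group held 2 libraries of cells sorted as CD45+CD3+CD4+. Both groups came from wild type C57BL/6 animals, 3 mice in all. No treatment is named, the series title names the intestine, and the sources used here give neither the age of the mice nor which library came from which mouse. The p-values therefore measure the spread between libraries, part of which may be technical.

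ILC3 are innate lymphocytes of mucosal tissue, which lack the rearranged antigen receptors of T cells. Cells make cholesterol from acetyl-CoA through mevalonate, farnesyl pyrophosphate, squalene and lanosterol. When sterols are scarce, the escort protein SCAP carries the SREBP factors out of the endoplasmic reticulum, where INSIG proteins otherwise hold them, and SREBP then switches on the synthesis genes. When sterols are plentiful, oxysterols activate the LXR receptors, which switch on the efflux pumps ABCA1 and ABCG1. An oxysterol made by the enzymes CH25H and CYP7B1 attracts ILC3 and other lymphocytes through the receptor GPR183.

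Depth was 15123715 to 25956023 counts per library. Values are CPM, counts per 1000000 counts of a library whose size is scaled with TMM factors, and 3 counts, the limit that a count of 0 allows, came to 0.108 to 0.192 CPM. Cd4 stood at 2.82 to 6.28 CPM in ILC3 and 90.1 to 142 CPM in CD4 T. The libraries labelled CD4 T also held markers of other cells. Summed over 12 plasmacytoid dendritic cell markers, the level was 256 to 644 CPM in ILC3 and 4251 to 4684 CPM in CD4 T, and 10 of the 11 tested were called lower in ILC3. Summed over 11 macrophage and monocyte markers it was 169 to 221 CPM in ILC3 and 2362 to 3022 CPM in CD4 T, with 8 of 10 tested called lower. Adgre1, a gene of that list, had 31, 0 and 0 counts in ILC3 and 3227 and 1089 counts in CD4 T. The 8 T cell markers summed to 458 to 1004 CPM in ILC3 and 1225 to 3023 CPM in CD4 T, with 4 called lower, and Cd6 had no count in any ILC3 library. The groups overlapped for 3 of the 8. Cd3e was 65.3, 69.9 and 20.6 CPM in ILC3, which was gated as CD3-, and 54.9 and 201 CPM in CD4 T. Cd3g was 362, 470 and 161 CPM in ILC3 and 280 and 1310 CPM in CD4 T, and Lat, with CD4 T replicate 1 below every ILC3 library, was 307, 283 and 184 CPM in ILC3 and 116 and 377 CPM in CD4 T. The 9 ILC3 markers summed to 25140 to 27490 CPM in ILC3 and 429 to 613 CPM in CD4 T, with 8 called higher. Most of the ILC3 sum came from 1 gene of that list. The 1 marker not called had every ILC3 library below both CD4 T libraries. The 8 B and plasma cell markers summed to 18170 to 101000 CPM in ILC3 and 21420 to 34700 CPM in CD4 T, with a median log2 fold change, ILC3 over CD4 T, of 0.77 over the 7 tested. Jchain alone was 17880 to 100400 CPM in ILC3 and 20830 to 34270 CPM in CD4 T, and the other 7 genes summed to 295 to 592 CPM in ILC3 and 433 to 593 CPM in CD4 T. Of the 7 tested, 0 were called by edgeR at adjusted p under 0.05, 1 at unadjusted p under 0.05, 1 by DESeq2 and 0 by limma-voom. The 9 epithelial markers summed to 7.58 to 14.9 CPM in ILC3 and 25.1 to 62.6 CPM in CD4 T, with 1 of 3 tested called lower. In sorted populations read in bulk, fewer cells of a type and less RNA per cell cannot be told apart, and the part of these marker differences in the results below was not tested.

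The pathway did not move in one direction. Of the 34 members, 33 passed the filter on low counts and 1, Ch25h, did not. ILC3 was higher for 3 of the 33, the mevalonate enzymes Mvk and Idi1 and the methylsterol oxidase Msmo1, and lower for 7, Pmvk, Dhcr7, Srebf1, Scap, Npc1, Abca1 and Abcg1 (edgeR quasi-likelihood test, Benjamini-Hochberg adjusted p under 0.05 over all genes tested). Over all 12747 genes tested, 6.46% were called higher and 7.21% lower, 13.7% in all, against 9.09% and 21.2% of the tested members. The median log2 fold change, ILC3 over CD4 T, was -0.67 over the tested members and -0.10 over all genes tested. Among the tested members, 14 had every ILC3 library below both CD4 T libraries, beside 29.6% of all genes, and 6 had every ILC3 library above, beside 25.5% of all genes. Scaled by library size alone, without TMM factors, 384 genes were called higher and 1502 lower rather than 824 and 919, the members 1 and 8, and the medians were -1.16 over the members and -0.60 over all genes. The calls rest on few libraries: leaving out 1 of the 5 at a time left 0 to 5 members called higher and 1 to 4 called lower. Npc1 was the 1 called member that kept its call in all 12 alternatives.

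**Figure D1:**
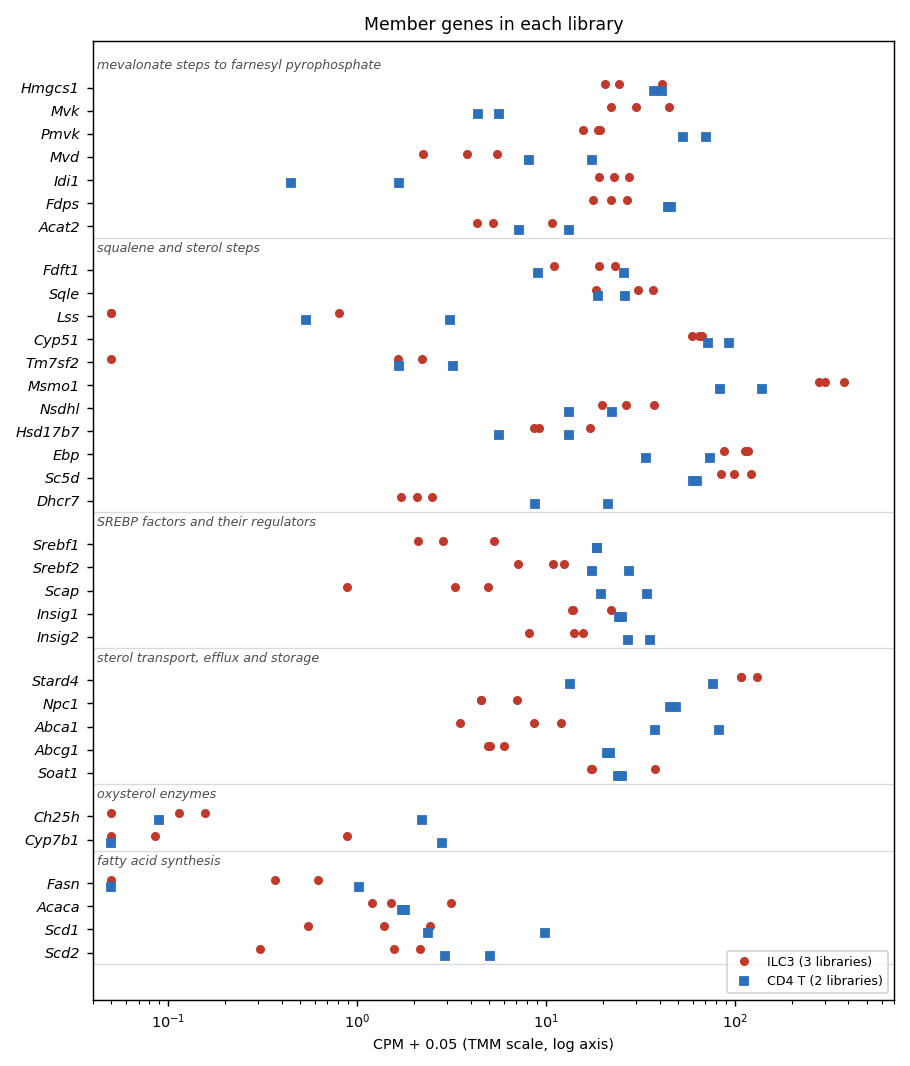
CPM plus 0.05 on a log axis for each of the 34 members, with a red circle for each of the 3 ILC3 libraries and a blue square for each of the 2 CD4 T libraries. The ILC3 circles of Idi1 and Mvk lie right of the CD4 T squares, those of the SREBP group lie left of them, and the fatty acid and oxysterol genes stay below 10 CPM in every library.

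The mevalonate steps split between neighbouring enzymes: of 7 genes, 2 were higher in ILC3 and 1 lower. These are 28.6% and 14.3% of the 7, beside 6.46% and 7.21% of all genes tested. Mvk encodes mevalonate kinase, which adds the first phosphate to mevalonate, and Pmvk encodes phosphomevalonate kinase, which adds the next. Mvk (chromosome 5, 114444264 to 114460591 in GRCm38) was 44.8, 22.0 and 29.9 CPM in ILC3 replicates 1 to 3 and 4.32 and 5.58 CPM in CD4 T replicates 1 and 2. Every ILC3 library was several times above both CD4 T libraries, and the mean ± SD was 32.3 ± 11.6 CPM over the 3 ILC3 libraries and 4.95 ± 0.889 CPM over the 2 CD4 T libraries. Its log2 fold change was 2.71 (SE 0.484, edgeR adjusted p = 0.0184). Pmvk (chromosome 3, 89454541 to 89469014), the next enzyme, went the other way, at 18.8, 15.8 and 19.4 CPM in ILC3 and 53.0 and 70.8 CPM in CD4 T. The groups did not overlap, and its log2 fold change was -1.78 (SE 0.306, edgeR adjusted p = 0.0162). Idi1 (chromosome 13, 8885606 to 8892396) encodes the isomerase that balances the isoprene units from which farnesyl pyrophosphate is built. It was 27.4, 22.9 and 19.0 CPM in ILC3 and 0.396 and 1.63 CPM in CD4 T, where it had 10 and 30 counts. At 4.52, its log2 fold change (SE 0.778, edgeR adjusted p = 0.0163) was the largest upward among the members.

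The Mvk call failed on leaving out ILC3 replicate 1 (edgeR adjusted p = 0.0709), ILC3 replicate 3 (0.0506) or CD4 T replicate 1 (0.0775), and over the alternatives its adjusted p ran from 1.16e-06 to 0.081. That of Pmvk was lost without ILC3 replicate 1 (0.0614), 2 (0.0713) or 3 (0.053), with a range of 5.37e-06 to 0.0974. That of Idi1 was lost without ILC3 replicate 1 (0.0615) or 2 (0.0544), with a range of 3.23e-09 to 0.0615, and leaving out CD4 T replicate 1 or 2 put its log2 fold change at 3.83 or 5.86. Idi1 shares 323 of its 3505 exon bases with the annotated transcript Gm48574 on the other strand, and reads of the pair cannot be told apart where the strand setting of the counting is unknown.

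The other 4 mevalonate genes were not called. Fdps, farnesyl pyrophosphate synthase, was 17.8, 26.9 and 22.2 CPM in ILC3 and 44.3 and 45.7 CPM in CD4 T, with no overlap, and its log2 fold change was -1.01 (SE 0.319, edgeR adjusted p = 0.0762). It passed with library size alone (-1.55, edgeR adjusted p = 0.0322) and in DESeq2 (adjusted p = 0.0256), in a range of 0.0256 to 0.243 over the alternatives. It shares 1124 of its 4208 exon bases with an annotated gene on the same strand. Mvd, the decarboxylase after Pmvk, was 5.45, 2.18 and 3.80 CPM in ILC3 and 17.5 and 8.07 CPM in CD4 T (log2 fold change -1.74, SE 0.698, edgeR adjusted p = 0.136). Hmgcs1, which makes the HMG-CoA that feeds the pathway, was 41.3, 20.6 and 24.4 CPM in ILC3 and 37.4 and 41.4 CPM in CD4 T, and the groups overlapped. Acat2, a thiolase that joins acetyl-CoA units, was 4.27 to 10.7 CPM in ILC3 and 7.20 to 13.2 CPM in CD4 T.

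Promoters are shown for the 4 called synthesis genes with the smallest p, to compare those higher and lower in ILC3, as 250 bases before the RefSeq start in GRCm38, 5′ to 3′ on the gene's strand. Pmvk has more than 1 start, of which the one farthest upstream is shown. The start used for Mvk lies a few bases inside the gene coordinates given above, so the last bases shown fall within them. Hmgcs1 was added after the search, since it was the 1 member in which the sterol regulatory element was found. Capitals mark matches on either strand, so that a match on the other strand is printed as its reverse complement. The search took TCACNCCAC as the sterol regulatory element to which SREBP binds. It took CCAAT as the box bound by the factor NF-Y, which is known to work beside SREBP. The E-box was searched as CACGTG, a motif that SREBP can also bind. The GC box, a motif of the general factor SP1, was searched as GGGCGG. No 2 matches overlapped in these 5 promoters.
Mvk (chr5:114444019-114444268, plus strand, higher in ILC3): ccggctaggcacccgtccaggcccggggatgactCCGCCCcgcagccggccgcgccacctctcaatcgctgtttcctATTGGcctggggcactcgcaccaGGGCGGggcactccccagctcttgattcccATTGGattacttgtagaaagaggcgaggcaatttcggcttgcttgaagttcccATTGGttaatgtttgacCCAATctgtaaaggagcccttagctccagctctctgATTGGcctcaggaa
Idi1 (chr13:8885356-8885605, plus strand, higher in ILC3): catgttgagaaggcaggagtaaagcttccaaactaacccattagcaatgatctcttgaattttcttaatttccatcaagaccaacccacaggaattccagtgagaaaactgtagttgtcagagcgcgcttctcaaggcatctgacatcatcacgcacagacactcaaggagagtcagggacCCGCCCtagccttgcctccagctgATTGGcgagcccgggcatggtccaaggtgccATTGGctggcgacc
Msmo1 (chr8:64733579-64733828, minus strand, higher in ILC3): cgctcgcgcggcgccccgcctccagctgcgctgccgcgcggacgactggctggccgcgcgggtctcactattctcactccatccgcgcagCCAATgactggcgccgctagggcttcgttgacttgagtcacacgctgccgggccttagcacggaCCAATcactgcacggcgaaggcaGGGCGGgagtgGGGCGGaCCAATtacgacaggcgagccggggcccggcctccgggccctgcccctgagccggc
Pmvk (chr3:89454291-89454540, plus strand, lower in ILC3): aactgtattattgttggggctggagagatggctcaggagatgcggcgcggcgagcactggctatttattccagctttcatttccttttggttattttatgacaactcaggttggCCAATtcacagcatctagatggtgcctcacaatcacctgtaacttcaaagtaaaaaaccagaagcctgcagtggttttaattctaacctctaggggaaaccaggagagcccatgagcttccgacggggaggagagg
Hmgcs1 (chr13:119690101-119690350, plus strand, not called): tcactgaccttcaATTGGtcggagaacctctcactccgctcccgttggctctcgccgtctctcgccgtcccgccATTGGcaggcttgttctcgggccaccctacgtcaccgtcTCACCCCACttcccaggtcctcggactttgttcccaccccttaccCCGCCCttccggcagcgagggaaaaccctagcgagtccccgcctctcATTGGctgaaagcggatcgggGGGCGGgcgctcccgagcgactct

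Mvk held 5 CCAAT boxes and 2 GC boxes, Msmo1 3 and 2, Idi1 2 and 1, and Pmvk 1 and 0. GC content was 58.8% for Mvk, 51.2% for Idi1, 72% for Msmo1, 47.6% for Pmvk and 64.8% for Hmgcs1. The RefSeq table held a promoter for 25 of the 34 members, and a gene with several starts, as 5 of them had, was counted once if any start matched. A CCAAT box was found in 20 of the 25 (80%), beside 40.4% of the 9739 tested genes with a promoter and 37.5% of all 27025 genes. A GC box was likewise found in 20 of the 25 (80%), beside 62% of the tested genes and 35.4% of all genes, and an E-box in 6 (24%), beside 9.84% and 6.86%. The sterol regulatory element as spelled was found in 1 (4%), beside 1.24% and 1.22%. By direction, the CCAAT box stood in 3 of the 3 members called higher, in 3 of the 5 called lower that had a promoter, and in 14 of the 16 not called. The E-box stood in 0 of the 3, 3 of the 5 and 3 of the 16, the GC box in 3, 4 and 13, and the sterol regulatory element in 0, 0 and 1. The groups differed in starts searched: Mvk, Idi1 and Msmo1 had 1 start each, Pmvk and Scap 2, and Dhcr7 and Srebf1 3. More sequence was thus searched for these genes called lower, and the E-box of Dhcr7 and that of Scap stood at 1 start only. Abca1, also called lower, had 1 start, and this held an E-box. A match is a run of letters and not a shown binding site.

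Among the 11 squalene and sterol enzymes, 1 was called in each direction (9.09%), beside 6.46% of all genes tested called higher and 7.21% lower. Of these enzymes 9 were not called, and the median log2 fold change was 0.30. Their summed level was 771, 649 and 620 CPM in ILC3 and 334 and 458 CPM in CD4 T, with Msmo1 the leading contributor in ILC3. Msmo1 (chromosome 8, 64718123 to 64733578) encodes the oxidase that removes methyl groups from early sterols. It was 379, 301 and 278 CPM in ILC3 and 83.1 and 139 CPM in CD4 T, with every ILC3 library above both CD4 T libraries. Its mean ± SD was 319 ± 52.9 CPM over the 3 ILC3 libraries and 111 ± 39.3 CPM over the 2 CD4 T libraries, and its log2 fold change was 1.53 (SE 0.352, edgeR adjusted p = 0.0378). Dhcr7 (chromosome 7, 143823167 to 143848410) encodes the reductase of the last step to cholesterol. It was 2.45, 1.67 and 2.05 CPM in ILC3 and 21.4 and 8.72 CPM in CD4 T, and its log2 fold change was -2.87 (SE 0.675, edgeR adjusted p = 0.0397).

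The Msmo1 call failed on leaving out ILC3 replicate 1 (edgeR adjusted p = 0.101), 2 (0.0972) or 3 (0.0794), without CD4 T replicate 1 (0.0882) and with library size alone (0.148), with a range of 0.000112 to 0.153 over the alternatives. That of Dhcr7 was lost without ILC3 replicate 1 (0.092), 2 (0.105) or 3 (0.0865) and without CD4 T replicate 1 (0.239), where its log2 fold change was -2.07, with a range of 0.000445 to 0.239.

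Ebp and Sc5d, the isomerase and the desaturase that act on sterols shortly before the last steps, also had every ILC3 library above both CD4 T libraries, but neither passed the test. Ebp was 118, 113 and 88.2 CPM in ILC3 and 34.0 and 74.4 CPM in CD4 T (log2 fold change 0.98, SE 0.402, edgeR adjusted p = 0.144). Without CD4 T replicate 2 it passed, at 1.66 (edgeR adjusted p = 0.0255), and its adjusted p ran up to 0.495 over the alternatives. Sc5d was 121, 84.4 and 99.0 CPM in ILC3 and 62.8 and 60.4 CPM in CD4 T (0.72, SE 0.288, edgeR adjusted p = 0.135). Cyp51, the demethylase of lanosterol, was 64.7, 59.3 and 67.1 CPM in ILC3 and 71.7 and 93.3 CPM in CD4 T (-0.37, SE 0.269, edgeR adjusted p = 0.383).

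Squalene synthase (Fdft1) and squalene epoxidase (Sqle) overlapped between the groups. Fdft1 was 19.0, 23.2 and 11.0 CPM in ILC3 and 9.08 and 25.9 CPM in CD4 T, and 774 of its 4227 exon bases lie opposite Ctsb, a cathepsin gene of macrophages and other cells. Sqle was 30.8, 36.8 and 18.3 CPM in ILC3 and 19.0 and 26.3 CPM in CD4 T. Nsdhl and Hsd17b7, which complete the removal of methyl groups begun by Msmo1, were 19.7 to 37.4 and 8.58 to 17.1 CPM in ILC3 and 13.2 to 22.4 and 5.63 to 13.2 CPM in CD4 T. Lss, lanosterol synthase, had few counts, with 21, 0 and 0 counts in ILC3 and 77 and 9 counts in CD4 T. Tm7sf2, a sterol reductase, had 0, 25 and 37 counts in ILC3 and 80 and 30 counts in CD4 T, and shares 532 of its 4403 exon bases with Vps51 on the same strand.

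**Figure D2:**
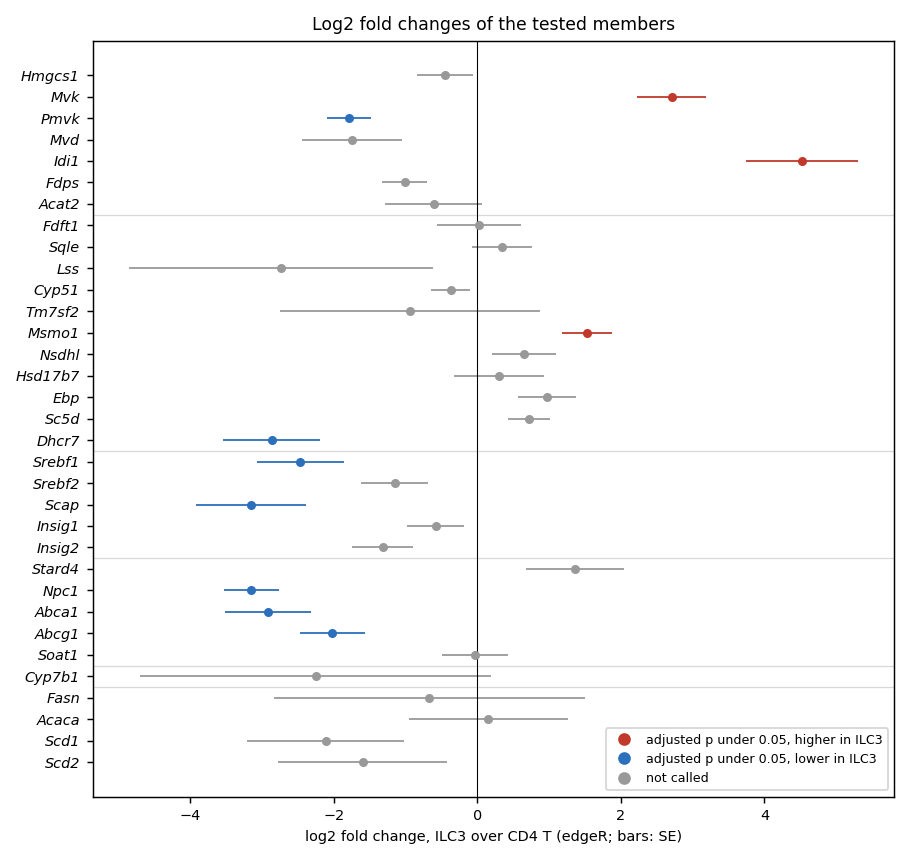
Log2 fold change, ILC3 over CD4 T, with its SE as a bar for each of the 33 tested members in order of role, red where called higher, blue where called lower and grey where not called. The mevalonate and sterol enzymes stand on both sides of 0, the 5 genes of the SREBP group all stand left of it, and bars are wide for Lss, Tm7sf2, Cyp7b1 and Fasn, which had few counts.

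All 5 genes of the SREBP group were lower in every ILC3 library than in either CD4 T library, and 2 of them passed the test as lower. Over all genes tested these shares were 29.6% and 7.21%. Their summed level was 47.4, 41.0 and 48.8 CPM in ILC3 and 131 and 117 CPM in CD4 T, with a median log2 fold change of -1.32. Scap (chromosome 9, 110333288 to 110384949), the escort of the SREBP factors, was 4.91, 0.833 and 3.27 CPM in ILC3 and 34.3 and 19.6 CPM in CD4 T (log2 fold change -3.15, SE 0.77, edgeR adjusted p = 0.0439). Srebf1 (chromosome 11, 60199084 to 60224186), the factor known for driving fatty acid genes and itself a target of LXR, was 2.06, 2.82 and 5.26 CPM in ILC3 and 18.6 and 18.7 CPM in CD4 T (-2.46, SE 0.609, edgeR adjusted p = 0.0452). Both are thus scarce in ILC3 beside CD4 T, with the widest gap at Scap.

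Srebf2, the factor known for driving cholesterol genes, was 10.9, 7.05 and 12.4 CPM in ILC3 and 17.6 and 27.4 CPM in CD4 T (-1.15, SE 0.467, edgeR adjusted p = 0.139). Insig2 was 15.6, 8.07 and 14.1 CPM in ILC3 and 35.6 and 27.3 CPM in CD4 T (-1.32, SE 0.426, edgeR adjusted p = 0.0812), and passed in DESeq2 (adjusted p = 0.0295, in a range of 0.0295 to 0.275 over the alternatives). Insig1, which SREBP itself induces, was 14.0, 22.2 and 13.7 CPM in ILC3 and 25.3 and 24.4 CPM in CD4 T (-0.58, SE 0.395, edgeR adjusted p = 0.354).

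The Scap and Srebf1 calls were lost whichever library was left out. Without ILC3 replicates 1, 2 and 3 the edgeR adjusted p was 0.0732, 0.0688 and 0.0916 for Scap and 0.103, 0.113 and 0.0526 for Srebf1. Without CD4 T replicates 1 and 2 it was 0.193 and 0.0566 for Scap and 0.135 and 0.0849 for Srebf1. Over the alternatives it ran from 0.000952 to 0.193 for Scap and from 0.00122 to 0.135 for Srebf1. Scap shares 985 of its 7443 exon bases, and Srebf1 109 of 5634, with genes on the other strand.

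Of the 5 genes of sterol transport and storage, 3 fell, beside 7.21% of all genes tested, and the median log2 fold change was -2.02. Npc1 (chromosome 18, 12189694 to 12236506), which moves cholesterol out of lysosomes, was 4.51, 4.48 and 6.96 CPM in ILC3 and 49.2 and 45.2 CPM in CD4 T. The mean ± SD was 5.32 ± 1.42 CPM over the 3 ILC3 libraries and 47.2 ± 2.78 CPM over the 2 CD4 T libraries, a gap far wider than the spread within either group. At -3.15, its log2 fold change (SE 0.386, edgeR adjusted p = 0.00662) stayed between -3.39 and -3.04 with each library left out, and its adjusted p ran from 1.48e-11 to 0.0339 over the alternatives. Of its 11317 exon bases, 511 lie opposite Rmc1.

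Abca1 and Abcg1 encode the pumps that pass cholesterol to lipoproteins, and both are known LXR targets. Abca1 (chromosome 4, 53030789 to 53159988) was 8.59, 12.0 and 3.45 CPM in ILC3 and 82.8 and 37.7 CPM in CD4 T (-2.91, SE 0.601, edgeR adjusted p = 0.0276). Abcg1 (chromosome 17, 31057694 to 31117984) was 4.87, 5.96 and 5.03 CPM in ILC3 and 21.8 and 21.2 CPM in CD4 T (-2.02, SE 0.452, edgeR adjusted p = 0.0347). Abcg1 varied little within either group, whereas the Abca1 values were spread more widely in both groups. The macrophage marker Csf1r was 0.686, 0.769 and 3.39 CPM in ILC3 and 222 and 102 CPM in CD4 T, and its part in the results of these pumps was not tested.

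The Abca1 call failed on leaving out ILC3 replicate 1 (edgeR adjusted p = 0.0852), 2 (0.0544) or 3 (0.0503) and without CD4 T replicate 1 (0.142), where its log2 fold change was -2.23, with a range of 0.000113 to 0.142 over the alternatives. That of Abcg1 was lost without ILC3 replicates 1 (0.0951), 2 (0.0926) and 3 (0.0819) and CD4 T replicates 1 (0.0996) and 2 (0.055), with a range of 7.04e-05 to 0.164.

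Stard4, which carries cholesterol between membranes, was 108, 132 and 108 CPM in ILC3 and 13.4 and 76.8 CPM in CD4 T. The ILC3 libraries were alike and all above CD4 T, but the CD4 T libraries differed widely, and the log2 fold change of 1.36 did not pass (SE 0.68, edgeR adjusted p = 0.214). Leaving out CD4 T replicate 2 brought it to 3.12, which passed (edgeR adjusted p = 0.00631). Leaving out CD4 T replicate 1 brought it to 0.60. The adjusted p ran up to 0.408 over the alternatives. Soat1, which esterifies cholesterol for storage, was 17.4, 17.4 and 37.7 CPM in ILC3 and 24.1 and 25.2 CPM in CD4 T, and its log2 fold change was -0.03 (SE 0.459, edgeR adjusted p = 0.973).

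**Figure D3:**
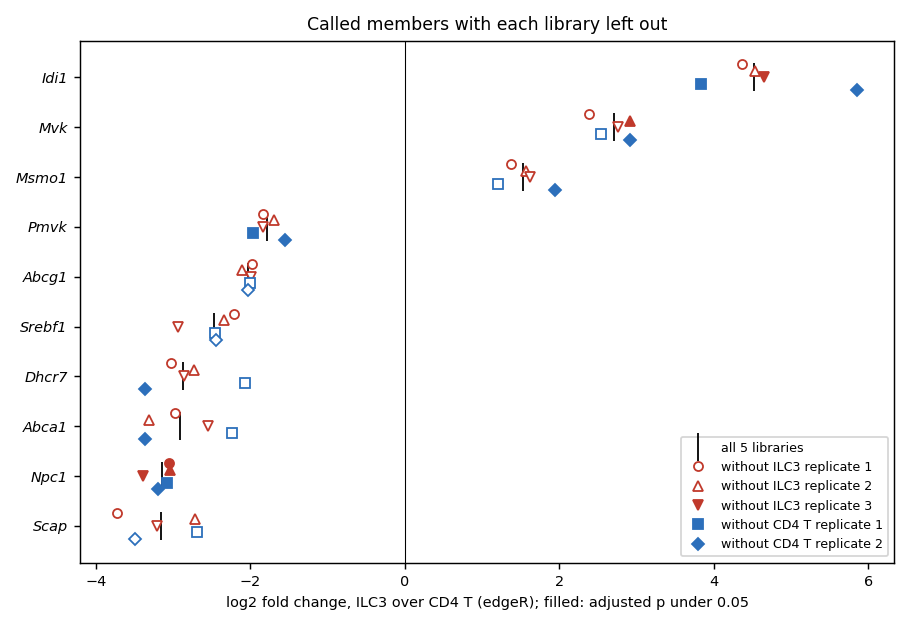
Log2 fold change, ILC3 over CD4 T, of the 10 called members with all 5 libraries (black line) and with each library left out in turn (red for an ILC3 library, blue for a CD4 T library), filled where the edgeR adjusted p stayed under 0.05. Every value keeps its side of 0, and Npc1 has filled symbols throughout.

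The oxysterol enzymes among the members, Ch25h and Cyp7b1, had few counts, most of them in CD4 T replicate 2. Ch25h, the hydroxylase that makes the precursor of the GPR183 ligand, had 3, 1 and 0 counts in ILC3 and 1 and 40 counts in CD4 T. Cyp7b1, which acts on it next, had 1, 13 and 0 counts in ILC3 and 0 and 51 counts in CD4 T (edgeR adjusted p = 0.572). Nearly all CD4 T counts of both genes came from CD4 T replicate 2. Its marker sums were 62.6 CPM for epithelium, 3023 for T cells, 3022 for macrophages and monocytes and 613 for ILC3. In CD4 T replicate 1 they were 25.1, 1225, 2362 and 429 CPM. The plasmacytoid dendritic cell and the B and plasma cell sums went the other way, at 4251 and 21420 CPM against 4684 and 34700 CPM. The part of any of these cells in the Ch25h and Cyp7b1 counts was not tested. The receptor of the ligand, Gpr183, was abundant by contrast, at 2836, 2724 and 2776 CPM in ILC3 and 93.3 and 176 CPM in CD4 T (log2 fold change 4.37, SE 0.433, edgeR adjusted p = 0.00347). It kept its call in all 12 alternatives (edgeR adjusted p up to 0.0359). Cyp27a1, which makes another oxysterol, had no count in ILC3 and 594 and 277 counts in CD4 T. Against 3 counts over the ILC3 group it was at least 402-fold lower in ILC3 (edgeR adjusted p = 0.00972). Leaving out CD4 T replicate 1 ended that call (0.0596). Of the list of 4 further oxysterol genes, 3 were tested, with 1 higher and 1 lower, beside 6.46% and 7.21% of all genes tested.

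The fatty acid enzymes among the members were low in both groups, and none of the 4 was called, beside 13.7% of all genes tested. Fasn, fatty acid synthase, had 16, 5 and 0 counts in ILC3 and 0 and 18 counts in CD4 T, and no difference was detectable at this depth (edgeR adjusted p = 0.865). Acaca, which makes malonyl-CoA for it, was 1.16, 1.47 and 3.10 CPM in ILC3 and 1.74 and 1.68 CPM in CD4 T (edgeR adjusted p = 0.941). The desaturases Scd1 and Scd2, close paralogues whose reads may be split between them, were 0.505 to 2.40 and 0.256 to 2.10 CPM in ILC3 and 2.33 to 9.91 and 2.87 to 4.99 CPM in CD4 T (edgeR adjusted p = 0.229 and 0.393). At unadjusted p under 0.05 the count among these 4 was 0, and at adjusted p under 0.05 it was 0 with DESeq2 and 0 with limma-voom.

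**Figure D4:**
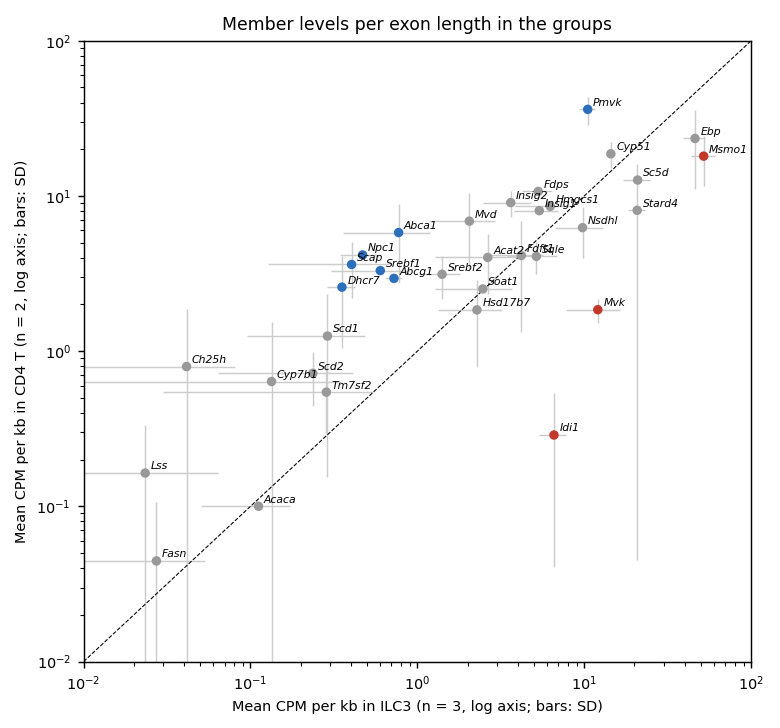
Mean CPM per kb of exon length in ILC3 (horizontal) against CD4 T (vertical) for the 34 members on log axes, with SD bars that run off the frame where they reach 0, red where called higher in ILC3, blue where called lower and grey otherwise. Msmo1 and Ebp lead in ILC3, Pmvk has the highest mean in CD4 T, and Mvk and Idi1 lie far right of the dashed line of equal level.

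Set per kb of exon length, so that genes can be ranked, the sterol genes spanned a wide range. In ILC3 the leading levels were those of Msmo1, at 51.9 ± 8.60 CPM per kb, and Ebp, at 46.1 ± 6.95, which did not differ beyond their spread (SD, n = 3). Sc5d (20.9 ± 3.82) and Stard4 (20.8 ± 2.45) followed, again within their spread. In CD4 T the leading level was that of Pmvk, at 36.1 ± 7.38 CPM per kb (SD, n = 2), which did not differ beyond the spread from Ebp, at 23.5 ± 12.4. Pmvk ranked 7 in ILC3 at 10.5 ± 1.13. Mvk ranked 6 in ILC3 and 24 in CD4 T, and Idi1 9 in ILC3 and 31 in CD4 T. In ILC3 the levels of Srebf1, Npc1, Scap and Dhcr7 were 0.5997, 0.4698, 0.4037 and 0.3533 CPM per kb, below every mevalonate enzyme. Exon length is the union over annotated isoforms, which understates the level of a gene with many of them.

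Further genes of these pathways, from 5 lists, also went both ways. Over all genes tested, 6.46% were called higher and 7.21% lower. Of 10 other enzymes of the mevalonate and sterol pathway, 2 were higher in ILC3 and 2 lower (20% each). Acat1, the mitochondrial thiolase, was 281, 225 and 187 CPM in ILC3 and 33.4 and 58.8 CPM in CD4 T (log2 fold change 2.32, SE 0.386, edgeR adjusted p = 0.0149). Ggps1, which extends farnesyl to geranylgeranyl pyrophosphate for protein prenylation, was 130, 122 and 140 CPM in ILC3 and 14.5 and 48.0 CPM in CD4 T (2.07, SE 0.53, edgeR adjusted p = 0.0488). Both thus resembled Mvk and Idi1 in direction. The thiolase among the members, Acat2, was not called (-0.61, SE 0.675, edgeR adjusted p = 0.582). Of 9 tested regulators of SREBP processing and LXR, 1 (11.1%) was called. It was Erlin1, a membrane protein that binds SCAP and INSIG complexes, at 0.253, 3.14 and 0.468 CPM in ILC3 and 85.6 and 40.2 CPM in CD4 T (-5.65, SE 1.08, edgeR adjusted p = 0.0226).

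Of 14 genes of sterol uptake, storage and transport, 3 were called, all lower in ILC3 (21.4%, beside 7.21% of all genes tested). Apoe, the apolipoprotein that macrophages secrete and that accepts exported cholesterol, was 106, 130 and 114 CPM in ILC3 and 1875 and 2354 CPM in CD4 T (-4.18, SE 0.305, edgeR adjusted p = 0.00151), with an adjusted p of at most 0.0302 over the alternatives. Nceh1, which frees stored cholesterol from its esters, was 2.89, 8.97 and 3.10 CPM in ILC3 and 38.0 and 51.9 CPM in CD4 T (-3.18, SE 0.60, edgeR adjusted p = 0.0217). Of 18 tested genes of fatty acid synthesis, elongation and desaturation, 2 were higher and 2 lower. This was 11.1% each way, beside 6.46% and 7.21% of all genes tested.

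The higher pair of that list, Hsd17b12 and Tecr, encode steps of fatty acid elongation in the endoplasmic reticulum. Hsd17b12 was 64.7, 78.7 and 73.7 CPM in ILC3 and 21.3 and 17.3 CPM in CD4 T (1.90, SE 0.301, edgeR adjusted p = 0.013). Tecr was 453, 485 and 353 CPM in ILC3 and 55.8 and 151 CPM in CD4 T (2.06, SE 0.488, edgeR adjusted p = 0.0406). The lower pair were Acly and Fads1. Acly, which makes cytosolic acetyl-CoA from citrate, was 22.1, 35.1 and 21.9 CPM in ILC3 and 96.8 and 102 CPM in CD4 T (-1.91, SE 0.323, edgeR adjusted p = 0.0156). Fads1, a desaturase of polyunsaturated fatty acids, was 0.0361, 0.128 and 1.40 CPM in ILC3 and 25.5 and 15.5 CPM in CD4 T (-5.31, SE 1.36, edgeR adjusted p = 0.0488).

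Of these further genes, each named one but Gpr183 and Apoe lost its call in at least 1 fit that left out a library. Acat1 lost it without ILC3 replicate 1 (edgeR adjusted p = 0.0522) or 2 (0.0501), Hsd17b12 without ILC3 replicate 2 (0.0556), and Acly without ILC3 replicate 1 (0.0642) or 3 (0.0562). Ggps1 lost it without ILC3 replicate 1 (0.105), 2 (0.102) or 3 (0.0959), and leaving out CD4 T replicate 1 or 2 gave log2 fold changes of 1.45 and 3.19. Tecr lost it without ILC3 replicate 1 (0.0989), 2 (0.101) or 3 (0.076) and CD4 T replicate 1 (0.0534), with 2.96 without CD4 T replicate 2. Erlin1 lost it without ILC3 replicate 1 (0.0531) or 3 (0.0608) and CD4 T replicate 1 (0.103), with -4.98 without CD4 T replicate 1 and -7.46 without ILC3 replicate 2. Nceh1 lost it without ILC3 replicate 1 (0.0659) or 3 (0.0612) and CD4 T replicate 1 (0.0647) or 2 (0.0546), with -3.90 without ILC3 replicate 2. Fads1 lost it without ILC3 replicate 1 (0.0822) or 2 (0.109) and CD4 T replicate 1 (0.187) or 2 (0.0776), with -8.01 without ILC3 replicate 3. Over all alternatives the adjusted p of these 8 genes reached 0.0632 for Acat1, 0.0797 for Hsd17b12, 0.0845 for Acly, 0.105 for Ggps1, 0.101 for Tecr, 0.103 for Erlin1, 0.0659 for Nceh1 and 0.187 for Fads1.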

How the data were processed

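RNA of sorted cells was made into libraries with the SMARTer Ultra Low Input V4 kit, per the labels' protocols. The deposited values are raw counts per gene, made by the authors with CASAVA 1.8.2 and STAR 2.3.0 on mm10, per the submitters' processing notes. No source used here names the counting tool, its annotation or its strand setting. Of 27179 identifiers, 25275 matched a RefSeq symbol; the other 1904 held 0.121% to 0.422% of each library's counts. The table had 0 value columns that belong to no sample.

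Genes were filtered with filterByExpr (at least 10 counts, 15 in total), scaled with TMM and tested with the quasi-likelihood test of edgeR 4.0.16 in R 4.3.3, with 3 residual degrees of freedom. CPM use the scaled library sizes of that fit. Gene coordinates come from RefSeq, and exon lengths and exon overlaps from GENCODE M21, both on GRCm38, the same build as mm10. Each SE is approximate: the absolute log2 fold change divided by the square root of the F value of the edgeR test. Intervals were not computed, and the limit of 3 counts covers counting error only. The alternatives were DESeq2 1.42.0 size factors and Wald test, library size alone, no filter, at least 1 CPM in 2 libraries, limma 3.58.1 voom, a replicate block and leaving out each library. The edgeR step was also run on simulated counts with the same dispersion for every gene. The outcome is not given here, and no result rests on it.

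The members, lists and rule for named genes were chosen with earlier results of these data known. The rule names every member and, of each of the 5 further pathway lists, up to 4 called genes with the smallest p. For some genes so chosen, results are not reported here.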

Additional observations from a re-analysis of the deposited data

How the results depend on the processing

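Of the called members, Npc1 kept its call in all 12 alternatives, Idi1 in 10, Pmvk in 8, Mvk, Dhcr7 and Abca1 in 7, and Msmo1, Srebf1, Scap and Abcg1 in 6, and none of them changed direction. Calls over all genes (824 higher in ILC3 and 919 lower) were 384 and 1502 with library size alone, 1250 and 1378 with no filter, 1914 and 1858 with DESeq2, 1317 and 1402 with limma-voom, and 269 to 1712 and 306 to 960 with 1 library left out. Members called (3 higher, 7 lower) were 1 and 8 with library size alone, and 0 to 5 and 1 to 4 with 1 library left out. Their median log2 fold change (-0.67) was -1.16 with library size alone and -0.892 to -0.503 with 1 library left out. Some members not called changed sign. With library size alone Fdft1 was -0.472, Sqle -0.158, Hsd17b7 -0.222 and Acaca -0.386, and with limma-voom Fasn was 0.669 and Acaca -0.0531. With 1 library left out, Fdft1 ran from -0.54 to 0.978, Hsd17b7 from -0.173 to 1.05, Soat1 from -0.503 to 0.163, Fasn from -1.67 to 5.72 and Acaca from -0.38 to 0.404. A fit that leaves out a CD4 T library keeps 1, which is assumed to vary like the ILC3 libraries. The causes were not tested.

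Replicate numbers are shared by the groups, but the labels do not tie them to mice, and the deviations of same-numbered libraries had a correlation of -0.0344. With the replicate block, 215 genes were called higher and 305 lower, members 1 and 1, with a median of -0.496, Fasn at 1.5 and Acaca at -0.391. In that fit ILC3 replicate 3 had no CD4 T library of its number and added nothing to the group difference. Fewer residual degrees of freedom were left than the 3 of the main fit. Depth limits Lss, Tm7sf2, Cyp7b1, Ch25h and Fasn.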
